A study of Mus musculus with 2 samples.

Results

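The motor genes described here are the kinesins and their light chains, the subunits of cytoplasmic dynein and dynactin, and the unconventional myosins. They were picked by a rule on gene symbols. A probe set was kept where the platform annotation names only 1 gene and that gene's symbol belongs to one of these families. The members, and the lists they are divided into, were chosen with earlier results of these data known. The rule gave 86 probe sets for 82 genes, of 34472 probe sets and 22180 named genes on the array. Of the 82 genes, 37 encode kinesin heavy chains, 3 kinesin light chains, 18 dynein or dynactin subunits and 24 unconventional myosins.

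The RNA came from ribosomes pulled down through a haemagglutinin tag from the medial prefrontal cortex of adult D2Cre::RiboTag mice. In such mice a Cre recombinase under control of the Drd2 dopamine receptor gene switches on a tagged ribosomal protein, so the RNA is that bound to ribosomes of cells in which Cre has acted. There is 1 group of 2 arrays, which the labels call technical replicates of a pool of 5 mice, and no unprecipitated RNA, mock precipitation or other condition was analysed here. The labels do not say outright that both arrays share 1 pool, which is assumed here. If they do, the spread between the arrays covers laboratory steps and not animals. No test between groups could be made, and no p-value is given. All values are log2 signals, and pairs of values are those of replicate 1 and then replicate 2. Since each probe set binds its target with its own strength, single genes were not ranked against each other by signal. Medians of lists and calls against background do set different genes side by side, and this limit holds for them.

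Kinesins and dynein walk along microtubules and myosins along actin, each using the energy of ATP. In axons most transport kinesins carry cargo outward and cytoplasmic dynein, with its activator dynactin, carries it back to the cell body. A separate set of kinesins builds and pulls apart the spindle of dividing cells, while several unconventional myosins move membranes in dendritic spines, hair cells and the gut lining.

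Genes of the labelled cells were looked at first. Rpl22, the gene tagged in RiboTag mice, gave 6.71 and 6.75. This was above background but under the threshold from testis, liver and skeletal muscle genes (7.26 and 7.06). Drd2 gave 10.78 and 10.70, and all 10 pan-neuronal genes examined exceeded background on both arrays. Without unprecipitated RNA, these values cannot show whether the labelled cells were enriched. Markers of other brain cells also exceeded background, a level passed by 60.3% of all named genes. The counts were 10 of 10 for astrocytes, 8 of 8 for oligodendrocytes, 6 of 6 for their precursors, 8 of 8 for microglia and 9 of 10 for endothelial and mural cells. At the threshold from testis, liver and skeletal muscle genes, described below, all 10 pan-neuronal genes passed, against 38.2% of all named genes. There the other counts, in the same order, were 7 of 10, 6 of 8, 2 of 6, 3 of 8 and 3 of 10. List medians were 12.15 for pan-neuronal genes, 7.64 for astrocytes, 8.19 for oligodendrocytes, 6.99 for precursors, 6.765 for microglia and 6.815 for vessels. Signal of a motor gene in this RNA hence does not show which of these cells it came from, and the part that other cells had in it was not tested.

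Background was set by 1394 genes of smell and pheromone receptors, families known from the nose. To be called above it, a gene had to exceed their 95th percentile on each array, 5.61 on replicate 1 and 5.66 on replicate 2. A pair of stricter thresholds was also used: the 99th percentile of the same genes (6.64 on each array), passed by 45% of all named genes, and the 95th percentile of 32 testis, liver and skeletal muscle genes (7.26 and 7.06), passed by 38.2%. Of the 82 motor genes 63 passed, a share of 76.8%. This stands against 60.3% of all 22180 named genes and 60.2% of the named genes that are no motor gene. The shares of named genes include the 1394 receptor genes, of which few can exceed their own 95th percentile. Without the receptor genes those shares would be higher. The median signal was 7.40 over the motor genes and 6.355 over all named genes. The families divided. All 15 transport kinesins, all 3 light chains and all 18 dynein and dynactin genes passed, as did 18 of 24 unconventional myosins and 8 of 10 ciliary, centriolar and other kinesins. Of the 12 mitotic kinesins only 1 passed, so they made up 11 of the 13 kinesin heavy chain genes that did not.

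**Figure D1:**
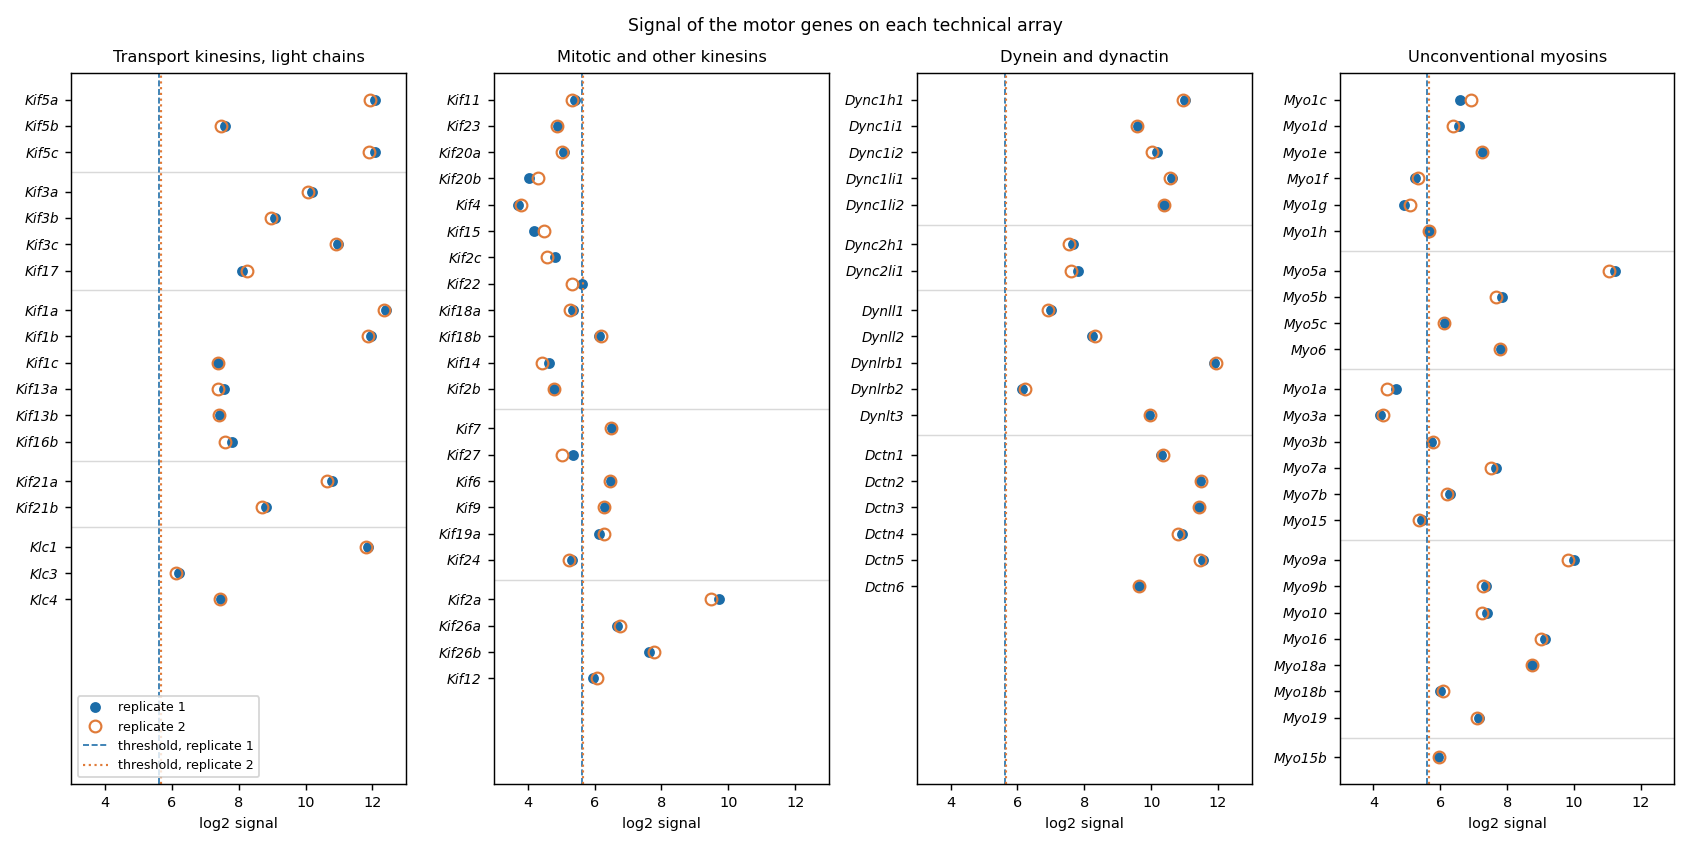
Each row is a motor gene and the horizontal axis is the log2 signal, with replicate 1 as filled and replicate 2 as open circles, and vertical lines at the background threshold of each array (5.61 and 5.66). Grey lines separate the lists. All transport kinesins, light chains, dynein and dynactin genes lie right of the thresholds, and among the 12 mitotic kinesins Kif18b alone does so on both arrays.

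The promoters of mitotic and transport kinesin genes were then set side by side. Genes used late in the cell cycle are known for 2 promoter motifs. These are the hexamer TTTGAA, called the CHR (cell cycle genes homology region), which lies near the start, and the box CCAAT, which binds nuclear factor Y and lies upstream of it. They were looked for on both strands, as TTTGAA or TTCAAA and as CCAAT or ATTGG, in windows that run from 250 bases before to 50 bases after each annotated start. The windows are those of RefSeq on mouse build GRCm38.p6. Of the 82 motor genes 67 had a window, among them 11 mitotic and 11 transport kinesins. The motifs were chosen with the array values known. The promoters of 4 mitotic kinesins that hold both motifs are shown as examples, that of Kif18b because it is also the mitotic kinesin above background. Kif4 is not shown, though it too holds both near the start. Its nearer CCAAT box begins 5 bases before the start and its hexamer 19 after it. Those of the transport kinesins Kif3a and Kif21a are shown for contrast. Each is written 5′ to 3′ on the strand of the gene, and capitals mark every match to either motif.
Kif11, chr19:37376132-37376431, plus strand: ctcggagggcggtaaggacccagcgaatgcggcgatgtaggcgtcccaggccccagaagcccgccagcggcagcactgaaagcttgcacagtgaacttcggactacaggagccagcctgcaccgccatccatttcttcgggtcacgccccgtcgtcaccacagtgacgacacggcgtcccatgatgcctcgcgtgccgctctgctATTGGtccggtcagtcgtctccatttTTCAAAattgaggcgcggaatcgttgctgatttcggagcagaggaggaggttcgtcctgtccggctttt
Kif23, chr9:61946750-61947049, minus strand: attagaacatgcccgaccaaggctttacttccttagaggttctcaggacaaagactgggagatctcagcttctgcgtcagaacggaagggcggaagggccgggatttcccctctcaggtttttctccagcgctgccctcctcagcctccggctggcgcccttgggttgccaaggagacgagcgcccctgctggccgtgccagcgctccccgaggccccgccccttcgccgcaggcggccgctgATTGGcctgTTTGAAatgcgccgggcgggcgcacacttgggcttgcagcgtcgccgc
Kif22, chr7:127042371-127042670, minus strand: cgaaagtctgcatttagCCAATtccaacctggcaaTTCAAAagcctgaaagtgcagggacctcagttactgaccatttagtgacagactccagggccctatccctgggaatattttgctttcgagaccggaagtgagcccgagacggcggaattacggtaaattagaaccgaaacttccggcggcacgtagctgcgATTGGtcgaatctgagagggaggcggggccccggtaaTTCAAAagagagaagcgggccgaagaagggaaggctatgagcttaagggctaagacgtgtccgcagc
Kif18b, chr11:102925075-102925374, minus strand: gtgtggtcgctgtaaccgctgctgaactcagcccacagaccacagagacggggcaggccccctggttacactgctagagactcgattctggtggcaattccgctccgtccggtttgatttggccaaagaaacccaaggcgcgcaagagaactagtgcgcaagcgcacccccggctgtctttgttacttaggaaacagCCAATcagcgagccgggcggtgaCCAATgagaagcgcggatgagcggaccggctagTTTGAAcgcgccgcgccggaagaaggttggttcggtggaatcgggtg
Kif3a, chr11:53567119-53567418, plus strand: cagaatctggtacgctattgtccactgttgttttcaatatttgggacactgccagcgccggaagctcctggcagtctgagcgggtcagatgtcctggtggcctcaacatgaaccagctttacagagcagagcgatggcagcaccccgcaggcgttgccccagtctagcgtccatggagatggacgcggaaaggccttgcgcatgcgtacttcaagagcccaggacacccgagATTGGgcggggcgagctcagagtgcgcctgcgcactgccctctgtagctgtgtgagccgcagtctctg
Kif21a, chr15:91049902-91050201, minus strand: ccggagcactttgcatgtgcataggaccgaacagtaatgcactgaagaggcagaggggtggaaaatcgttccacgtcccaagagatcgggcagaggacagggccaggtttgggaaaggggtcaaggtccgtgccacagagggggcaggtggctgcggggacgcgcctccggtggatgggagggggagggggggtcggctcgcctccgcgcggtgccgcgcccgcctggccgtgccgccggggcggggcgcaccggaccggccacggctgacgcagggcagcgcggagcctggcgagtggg

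The CHR hexamer was present in the windows of 9 of 11 mitotic kinesin genes (81.8%) and of 1 of 11 transport kinesin genes, Kif1a, in the second of its windows. It was present in 20.2% of the 27025 genes with a window and in 17.9% of all 32851 windows of this length. In 7 of the 11 mitotic genes a match began within 20 bases of the annotated start, a distance set after the matches were seen. That was so in 2.22% of all windows and in 1 of the other 56 motor genes, Kif26b. Among the promoters printed above, the hexamer began 19 bases before the start in Kif11, 17 before it in Kif22, 2 after it in Kif23 and 3 after it in Kif18b. A CCAAT box was found in 7 of 11 mitotic, 3 of 11 transport and 41.1% of all genes, and both motifs together in 6 of 11 mitotic, 0 of 11 transport and 7.97% of all genes. These motifs did not overlap in any window of a motor gene. Windows of transport kinesins were the richer in G and C, with a median of 69.3%, against 59.7% for mitotic kinesins and 52.8% for all genes. A match is a stretch of letters and was not tested as a site.

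**Figure D2:**
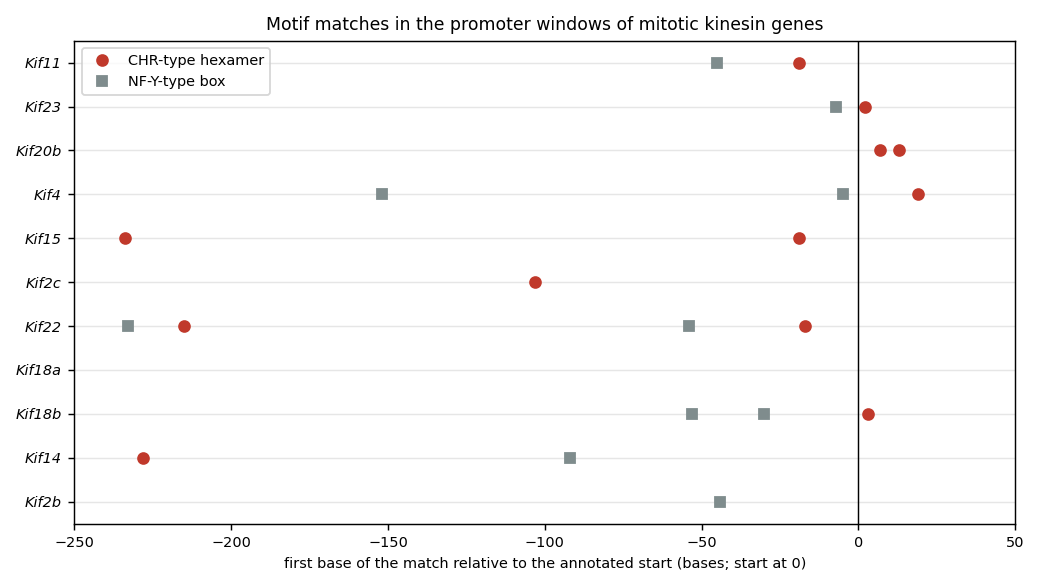
Each row is a mitotic kinesin gene with a promoter window, and the horizontal axis is the distance in bases of each match from the annotated start, set at 0. Circles are CHR-type hexamers and squares NF-Y-type boxes; in 7 of the 11 genes a circle lies between 19 bases before and 19 bases after the start, and Kif18a has neither kind of match.

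The signals of the mitotic kinesins stayed low on both arrays. Kif11, the motor that pushes spindle poles apart, gave 5.42 and 5.31. Kif23, which bundles the central spindle before a cell divides, gave 4.90 and 4.88. Kif20a, also of the central spindle, gave 5.07 and 5.02. Each of these was under its array's threshold on both arrays. Kif20b, a relative needed for cytokinesis, gave 4.03 and 4.32. Kif4, a motor of chromosome arms, gave 3.70 and 3.79. Kif15, which can share the work of Kif11, gave 4.19 and 4.48. Kif20b and Kif15 were both higher on replicate 2, by 0.29, and were below the threshold on both. Kif2c, which takes microtubules apart at kinetochores, gave 4.80 and 4.57, Kif14 of the cleavage site gave 4.63 and 4.44, and the related depolymeriser Kif2b gave 4.79 on both. Kif18a, which limits the swing of chromosomes at the spindle's middle, gave 5.34 and 5.25.

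In the mitotic list, 2 members exceeded the threshold on at least 1 array. Kif18b, a motor of astral microtubule ends, gave 6.12 and 6.19 (6.155 ± 0.049, SD, n = 2 technical arrays) and was above background on both. It passed neither stricter threshold. Kif22, a chromosome-bound motor, gave 5.63 and 5.32, above the threshold on replicate 1 alone and there by 0.02 units. Of spindle motors outside the symbol rule, the minus-end motor Kifc1 was at 4.10 and 4.0, and the kinetochore motor Cenpe at 5.63 and 5.56, above the threshold on replicate 1 alone. Their carboxy-terminal relatives Kifc2, known from dendrites, and Kifc3 were above background at 10.52 and 10.55 and at 7.89 and 7.85. Of 14 measured genes of proliferating cells 5 were above background (Ccnb2, Aurka, Plk1, Cdc20 and Tpx2). The 99th percentile was passed by 0 of the 14, against 45% of all named genes. Mki67 gave 5.07 and 5.00, Top2a 4.97 and 4.95 and Cdk1 4.79 and 4.88, all below background. The share called was thus 8.33% of mitotic kinesins and 35.7% of proliferation genes, against 60.3% of all named genes. A gene below the threshold had signal that was not told from background, which does not show that its transcript is absent. In such bulk RNA, few cells with a transcript and little of it in each cell cannot be told apart.

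Transport kinesins were above background without exception, and all 15 also passed both stricter thresholds. Of all named genes 60.3% were above background, and 45% and 38.2% passed the stricter thresholds. Kinesin-1 carries mitochondria, vesicles and RNA along axons and dendrites. Its neuronal heavy chains Kif5a and Kif5c gave 12.07 and 11.92 and 12.07 and 11.89. The widely expressed Kif5b has 2 probe sets that disagreed: one gave 10.02 and 10.00, and the other 5.19 and 4.97, under the threshold on both arrays. Their mean, 7.545 ± 0.085, was above it, so the call for Kif5b depends on which probe set is used. Among light chains, which link kinesin-1 to cargo, Klc1 gave 11.87 and 11.81, Klc4 7.48 and 7.45, and Klc3, known from sperm tails, 6.22 and 6.13. Klc3 was the light chain that did not reach the 99th percentile, and Klc2 was not analysed here.

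Kinesin-2 motors also exceeded every threshold tried, the strictest of which 38.2% of all named genes passed. Kif3a, which pairs with either of the following to form a motor for vesicles and for cilia, gave 10.20 and 10.08. Its partner Kif3b gave 9.09 and 8.98, and its neuronal partner Kif3c gave 10.96 and 10.92. Kifap3, the adaptor that joins this motor to cargo and lies outside the symbol rule, gave 11.22 and 11.15, so all parts of the complex gave signal. Kif17, known for carrying NMDA receptor subunits into dendrites, gave 8.10 and 8.26, and was one of only 2 transport kinesins not higher on replicate 1.

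Of the kinesin-3 motors, Kif1a, which carries synaptic vesicle precursors, gave 12.40 and 12.35. Kif1b, a motor for synaptic vesicle precursors and mitochondria, gave 11.96 and 11.86. Kif1c, a motor of dense-core vesicles, gave 7.37 and 7.38. Kif13a, known for moving the mannose-6-phosphate receptor, gave 7.55 and 7.39, and Kif13b, a partner of the scaffold protein Dlg1, gave 7.45 and 7.40. Kif16b, which moves early endosomes, gave 7.79 and 7.60. All 6 kinesin-3 genes passed every threshold on both arrays, against 38.2% of all named genes at the strictest. Kif21a and Kif21b, which also restrain microtubule growth, gave 10.79 and 10.64 and 8.81 and 8.71.

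Kinesins of other roles divided. Kif2a, which trims microtubules at the edge of growing axons, gave 9.71 and 9.48, and Kif26b 7.64 and 7.79, and both passed every threshold. Kif2a was listed here, while Kif2b and Kif2c were listed as mitotic. The count of 1 of 12 mitotic kinesins above background rests on that division. Kif26a gave 6.66 and 6.75, above the 99th percentile of receptor genes, whereas Kif12, known from kidney, gave 5.94 and 6.06, above the main threshold but not that one. Among the ciliary and centriolar members, Kif7, which acts in Hedgehog signalling at the tip of the cilium, had probe sets at 6.47 and 6.26 and at 6.58 and 6.69. Kif6 gave 6.49 and 6.45, Kif9 6.31 and 6.28, and Kif19a, which sets the length of motile cilia, 6.13 and 6.29. These 4 of 6 were above background (66.7%, against 60.3% of all named genes). At the 99th percentile 0 of the 6 passed, against 45% of all named genes. Kif24, which holds back cilium formation at the centriole, was not above background at 5.32 and 5.22. The 2 probe sets of Kif27, a relative of Kif7, gave 5.91 and 5.35 and 4.79 and 4.71. The brighter exceeded the threshold on replicate 1 only, and their mean of 5.19 ± 0.23 on neither array.

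Beside these, 3 of 10 measured ependymal and motile cilia genes were above background (Rsph1 at 6.34 and 6.68, Rsph4a at 6.77 and 7.13, and Ccdc40), and Foxj1, the factor that drives motile cilia, was not at 5.37 and 5.40. Of 14 axonemal dynein chains, which bend motile cilia, 6 were above background and 1, Dnal1 at 9.05 and 8.97, passed the stricter thresholds. The heavy chains Dnah1 at 6.21 and 6.02 and Dnah5 at 6.03 and 5.96 were above background, and Dnah2 at 5.51 and 5.39 was not. Also above it were Dnah6 at 6.01 and 6.13, Dnaic1 at 6.26 and 6.32 and Dnaic2 at 5.75 on both arrays. The share above background was 30% for ependymal and motile cilia genes and 42.9% for axonemal chains, against 60.3% of all named genes. The stricter thresholds were passed by 45% and 38.2% of all named genes. Every measured cytoplasmic dynein gene was above background.

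Cytoplasmic dynein-1, the main motor toward the minus ends of microtubules, gave signal from each of its large subunits. The heavy chain Dync1h1, which holds the motor domain, gave 11.02 and 10.95. The intermediate chains Dync1i1, known from neurons, and Dync1i2, found in most cells, gave 9.61 and 9.57 and 10.18 and 10.02. The light intermediate chains Dync1li1 and Dync1li2, which bind cargo adaptors, gave 10.61 and 10.56 and 10.38 and 10.37. All 5 passed every threshold, against 38.2% of all named genes at the strictest. So did the 2 measured chains of dynein-2, the motor of return transport inside cilia: its heavy chain Dync2h1 gave 7.65 and 7.53, and Dync2li1 gave 7.82 and 7.60.

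The light chains of dynein, small proteins that also bind many partners outside dynein, were less even. Dynlrb1 of the roadblock type gave 11.87 and 11.93 and Dynlt3 of the Tctex type 9.92 and 9.95. Dynll2 of the LC8 type gave 8.22 and 8.32, and its close relative Dynll1 gave 6.99 and 6.91, above the 99th percentile of receptor genes but not the threshold from testis, liver and muscle genes. Dynlrb2, known from ciliated cells and testis, gave 6.13 and 6.22 and passed neither stricter threshold. Probe sets of such short and much-copied genes can share targets. The Dynlt1 copies have only probe sets that the annotation gives to several genes and were left out, with 6 such probe sets for motor symbols in all.

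Dynactin, which activates dynein and joins it to cargo, gave signal from all 6 measured subunits. All 6 passed every threshold, against 38.2% of all named genes at the strictest. Dctn1, the large subunit that touches the microtubule, gave 10.30 and 10.35. Dctn2, or dynamitin, gave 11.46 and 11.48, and Dctn3 of the shoulder gave 11.43 on both arrays. The pointed-end subunits Dctn4, Dctn5 and Dctn6 gave 10.91 and 10.79, 11.55 and 11.47, and 9.62 and 9.64. The largest gap between arrays among dynactin subunits was 0.12 units. Actr1a, the actin-related protein of the dynactin filament and no member by symbol, was at 11.18 on both arrays.

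Of the adaptors and regulators of the motors 27 of 27 measured genes were above background, against 60.3% of all named genes. With the lowest probe set of each gene 26 of the 27 were, against 59.1% of all named genes. Not every call thus holds for each probe set. Kifbp, a kinesin-binding protein, gave 8.87 and 8.96, and Pafah1b1, or Lis1, a regulator of dynein, 11.43 and 11.33. Of the 27 genes 23 also passed the 99th percentile and 23 the threshold from testis, liver and muscle genes. These thresholds were passed by 45% and 38.2% of all named genes. The 4 adaptors and regulators that missed the 99th percentile were Nde1 (5.96 and 5.89), Hook2 (6.46 and 6.43), Capza1 (6.58 and 6.445) and the melanosome adaptor Mlph (5.86 and 5.80).

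**Figure D3:**
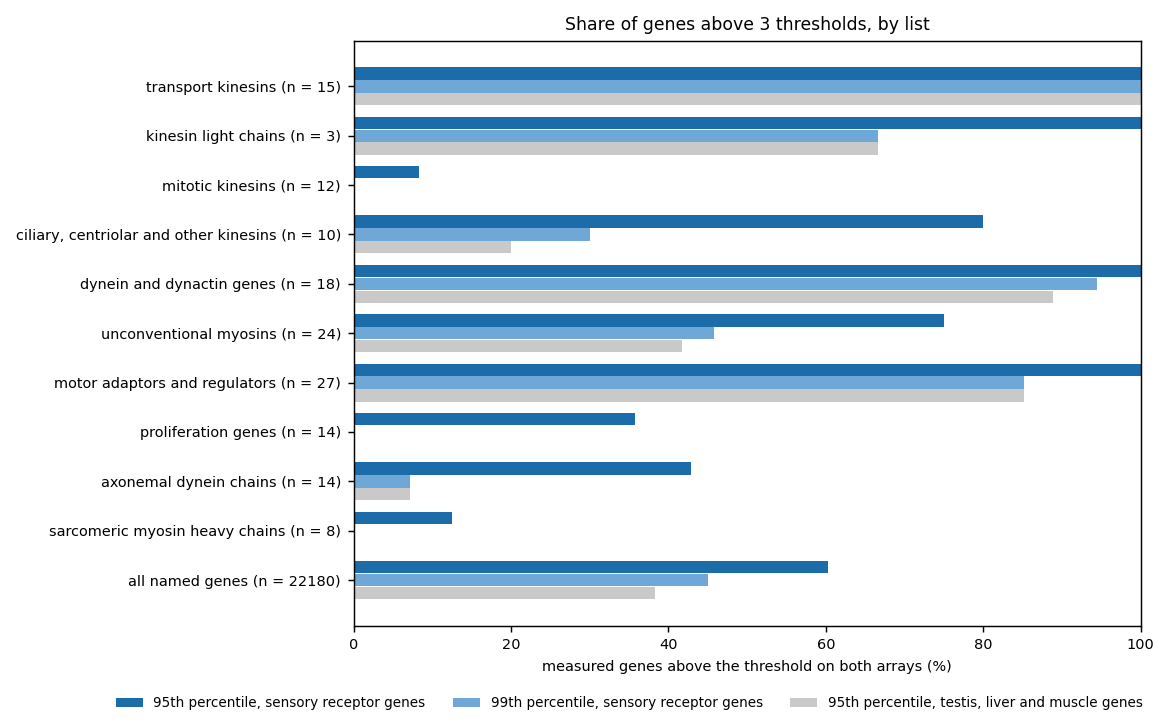
Bars give the percentage of each list's measured genes above a threshold on both arrays, for the main threshold and 2 stricter ones, with the number of measured genes in brackets. Transport kinesins stay at 100% under each, mitotic kinesins stand at 8.33%, 0% and 0%, and all named genes at 60.3%, 45% and 38.2%.

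Unconventional myosins were mixed. Of 24 genes 18 passed, or 75%, against 60.3% of all named genes, and 11 (45.8%) passed the 99th percentile, against 45% of all named genes. Those that move cargo along actin were all above background. Myo5a, which brings endoplasmic reticulum into dendritic spines, gave 11.21 and 11.05. Myo5b, a motor of recycling endosomes, gave 7.83 and 7.65, and Myo6, which walks the opposite way along actin, 7.82 and 7.79. Myo5c, known from glands and other epithelia, gave 6.14 and 6.12, above background but past neither stricter threshold.

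Myosins with a signalling domain or other role passed in 7 of 7 cases, against 60.3% of all named genes. Myo9a and Myo9b, which carry a signalling domain in the tail, gave 10.00 and 9.83 and 7.37 and 7.27. Myo10, a motor of filopodia, gave 7.40 and 7.26, and Myo16, known from brain, 9.13 and 9.02. Myo18a gave 8.74 and 8.75, and Myo19, a motor of mitochondria, 7.15 and 7.09. Myo18b, known from striated muscle, gave 5.99 and 6.09, again past neither stricter threshold. Myo15b, which stood in no list, was above background at 5.92 and 5.97 and passed neither.

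In class I, whose members link membranes to actin, Myo1c gave 6.58 and 6.92, Myo1d 6.56 and 6.39, and Myo1e 7.29 and 7.26, all above background, so 3 of the 6 measured passed (50%, against 60.3% of all named genes). Myo1c showed the largest gap between arrays of all motor genes, 0.34 units, and was above the 99th percentile on replicate 2 only. Myo1f and Myo1g, known from blood and immune cells, were not above background: Myo1f gave 5.24 and 5.32, and Myo1g had probe sets at 4.61 and 4.81 and at 5.21 and 5.36. Microglia markers, by contrast, were above background in 8 of 8 cases, against 60.3% of all named genes, with gene means from 5.845 to 7.835. At the 99th percentile 4 of 8 passed, against 45% of all named genes. At the threshold from testis, liver and muscle genes 3 of 8 did, against 38.2%. Myo1h, at 5.67 and 5.66, exceeded the threshold on replicate 1 alone.

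Of the myosins of hair cells and the brush border, the gut lining's fringe, 3 of 6 passed (50%, against 60.3% of all named genes). Myo7a, known from hair cells and retina, gave 7.66 and 7.52 and passed every threshold. Myo7b, known from the brush border, gave 6.30 and 6.20, and Myo3b 5.73 and 5.79, which was within 0.13 units of the threshold on each array. Myo1a of the brush border gave 4.67 and 4.41, Myo3a of hair cells 4.20 and 4.27, and Myo15, which lengthens hair cell bundles, 5.44 and 5.36. These last 3 were under the threshold on both arrays. Among 10 marker genes of the same tissues, 3 were above background: Gfi1, Lct and, at 8.19 and 8.21, Otof.

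Conventional myosins stood beside these for comparison. Of 8 non-muscle myosin-2 genes and light chains 7 were above background, with Myh9 at 8.41 and 8.18, Myh10, the form best known from brain, at 10.33 and 10.19, and Myh14 at 6.92 and 6.97. Myl12a was not, at 5.49 and 5.09. Of 8 sarcomeric heavy chains, which drive muscle contraction, 1 was above background, Myh7 of slow and heart muscle at 5.99 and 5.85. The 99th percentile was passed by 0 of these 8. Of all named genes 60.3% were above background and 45% passed the 99th percentile. Myh1, Myh2 and Myh3 gave 4.79 and 4.97, 5.05 and 5.19, and 5.20 and 4.88.

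The arrays repeated the motor genes closely. The median absolute difference between them was 0.095 units over the 82 motor genes and 0.12 over all named genes. Among genes above background it was 0.09 for the 63 motor genes and 0.09 for all 13374 genes, the same to 2 decimals. Myo1c (0.34), Kif27 (0.32), Kif22 (0.31), Kif15 and Kif20b (0.29 each) differed most. Of the 63 motor genes above background 43 were higher on replicate 1, against 53.5% of all genes above background, and among transport kinesins 13 of 15 were. The median of replicate 1 minus replicate 2 was 0.11 units for transport kinesins, 0.05 for motor genes above background and 0.02 for all genes above it. Of the 5 genes with the largest gaps, Kif27, Kif15 and Kif20b were below background on both arrays and Kif22 on one of them.

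**Figure D4:**
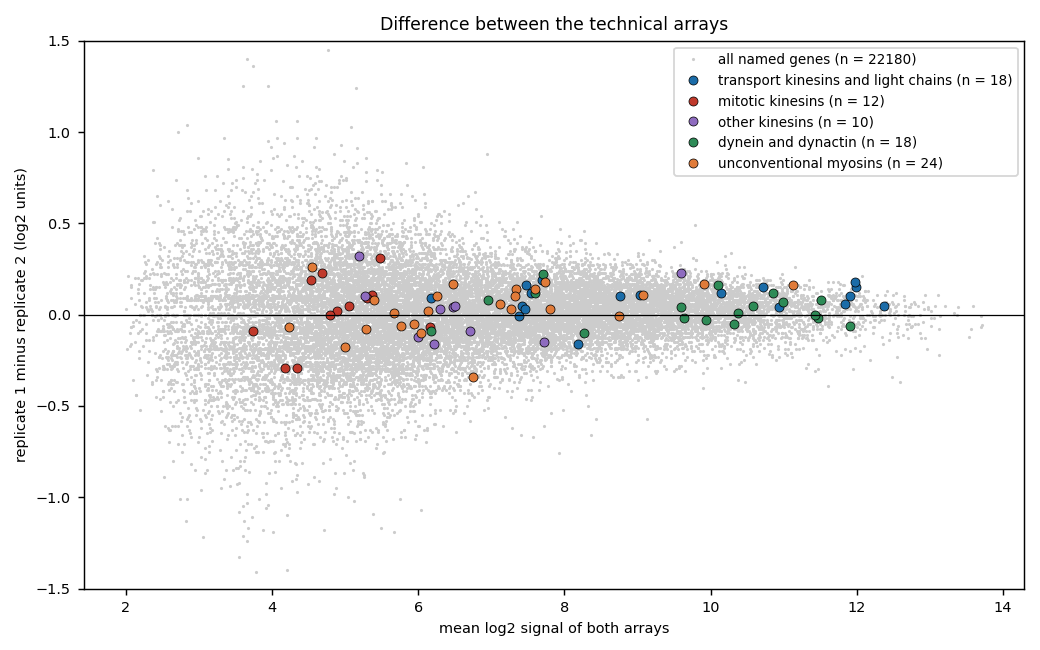
The vertical axis is replicate 1 minus replicate 2 and the horizontal axis the mean of both, in log2 units, with all 22180 named genes in grey and the motor genes coloured by family. The largest gap of a motor gene is 0.34 units (Myo1c), against 1.45 units among all named genes, and the means of mitotic kinesins (red) run from 3.745 to 6.155.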

How the data were processed

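The authors deposited 1 table of values per probe set and array. The authors' deposited values run from 1.66 to 14.18 and were read as log2 signals; how the authors corrected, summarised and normalized them, and to which log base, is not given in the sources used here. Per the labels' protocols, RNA was labelled with the Affymetrix WT Plus kit. The 0 unused columns aside, both arrays entered every result, and their number limits the precision.

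Genes were named through the platform annotation: 23521 probe sets list 1 gene, 1814 several and 9137 none. Where a gene had several probe sets their mean was used, giving 22180 genes; 4 motor genes have more than 1. Symbols of listed genes were updated through RefSeq synonyms where needed. Thresholds were percentiles of receptor genes (pseudogenes of these families included), taken per array. The steps were run in Python 3.11.15 with pandas 2.3.3 and checked on simulated data. Genes were planted there well above or well below the threshold. That check does not cover genes close to it, such as Kif22, Myo3b and Myo1h. Members and lists were chosen with earlier results of these data known. Every motor gene could be named. Values on both arrays are given for the first 4 measured in each list, those whose call differed from that of most of their list, those with discordant probe sets and the 5 largest differences; of lists of other pathway genes, for the first 3 and up to 6 exceptions. Other genes were named after their values were seen. Alternatives changed the threshold, the probe set of a gene, the normalization or the arrays used.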

Additional observations from a re-analysis of the deposited data

How the results depend on the processing

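Counts of transport kinesins (14 to 15) and of dynein and dynactin genes (16 to 18) stayed within 1.5 times of the reported ones under every alternative tried. So did those of all motor genes (45 to 65) and of motor adaptors and regulators (23 to 27). Over the same alternatives the share of all named genes called ran from 38.2% to 62.5%. Lists with every measured gene called can only fall in share, so a limit of 1.5 times is easily met. At the 99th percentile of receptor genes, mitotic kinesins fell to 0, ciliary, centriolar and other kinesins to 3 and unconventional myosins to 11, beside 45% of all named genes. At the threshold from 32 testis, liver and muscle genes, which rests on few genes, they fell to 0, 2 and 10, beside 38.2%. On single arrays the mitotic count ranged between 1 and 2, the second being Kif22 on replicate 1. Quantile normalization moved no motor gene's signal by more than 0.025 units and changed none of the 7 list counts. The median absolute difference between arrays lay between 0.0875 and 0.095. No paired analysis was possible because there is only 1 group. Without control RNA or scanner files, a dim signal cannot be told from background.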
